A study of Mus musculus with 10 samples.

Results

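The magnesium transporters and channels of AtT20 cells were followed as a set of 10 genes, namely the 3 members of the *Slc41* family, the 4 members of the *Cnnm* family, *Trpm6*, *Trpm7* and *Magt1*, of 53801 genes in the table. The set was put together from gene families and selected on the measured fall of *Slc41a2* in the knockdown line, so the contrast between the lines is given for these 10 genes as a description and without p-values. AtT20/D16v-F2 is a mouse corticotroph line from a pituitary tumour, and both groups came from it. The knockdown group was a line stably transduced with a lentivirus for *Creb3l1*-shRNA1, a short hairpin RNA against the transcription factor gene *Creb3l1*, and the control was a line made in the same way with a non-targeting shRNA. Each group gave 5 libraries of poly(A)-selected RNA, and the labels name no treatment, dose or time. Each group is a single stable line, so the knockdown and any other difference between these lines cannot be told apart. The libraries of a line are numbered in the labels, and the study calls the replicates of all its experiments biological. Separate cultures are not stated for these libraries, so their spread may be partly technical.

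Magnesium is held inside cells mostly bound to ATP and nucleic acids, and its free level is set by the balance of entry, extrusion and exchange with the mitochondria. SLC41 proteins are relatives of the bacterial MgtE channel that carry magnesium across membranes, and cyclin M proteins, encoded by the *Cnnm* genes, take part in its extrusion. TRPM6 and TRPM7 are cation channels fused to a protein kinase, of which TRPM6 is best known from the gut and the distal convoluted tubule of the kidney, and MAGT1 is a subunit of the oligosaccharyltransferase of the endoplasmic reticulum that has also been linked to magnesium uptake.

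The values are the deposited numbers of reads counted on each gene, scaled between libraries and called normalised counts here. The counts summed to 17420698 to 21497750 reads per non-targeting library and 18866520 to 22205107 per *Creb3l1*-shRNA1 library. A gene is called higher or lower where its adjusted p was under 0.01 in the edgeR fit to the 14336 genes with enough reads. *Creb3l1* stood between 3531 and 3864 normalised counts in the non-targeting libraries and between 1014 and 1159 in the *Creb3l1*-shRNA1 libraries, which is in the direction of the labels. Non-targeting replicate 3 stood apart, because *Gm42418*, a non-coding gene, took 4.13% of its reads, while the share was 0.107% to 0.129% in the remaining libraries of that line. The corticotroph markers had reads in both lines and 5 of the 6 were called, beside 40.7% of all genes tested. *Neurod1* and *Pitx1* were called higher and *Pomc*, *Tbx19* and *Pcsk1* lower. *Crhr1* was not called and was low, at 21.2 to 37.7 normalised counts in the control line and 17.1 to 43.6 in the knockdown line. By quantitative PCR the study reported no change of *Pomc* mRNA in its knockdown lines. The summed level of the 6 markers, most of it *Pomc*, was 150424 to 161539 normalised counts in the control line and 108547 to 115408 in the knockdown line. Of the 8 markers of the other hormone cells *Prl*, *Tshb*, *Fshb* and *Pou1f1* had no read in any library, and the sum of the list was 76.4 to 94.1 and 55.9 to 75.4 normalised counts, nearly all of it *Nr5a1*. The endothelial genes *Cdh5* and *Kdr* and the leukocyte genes *Ptprc* and *Cd3e* had no read in any library. *Pecam1* was at 10.6 to 18.3 and 4.28 to 7.45 normalised counts and was called lower, and *Cd68* was at 33.9 to 51.9 and 24.6 to 38.2 and was not called. The 4 fibroblast markers summed to 677.9 to 914.3 normalised counts in the control line and 838.8 to 1263.7 in the knockdown line, nearly all of it the collagen gene *Col1a1*, with *Dcn* at or near 0, and the part of such genes in the results was not tested. In bulk RNA, fewer cells with a transcript and less of it per cell cannot be told apart.

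Of the 10 genes, 8 had enough reads to be tested. *Slc41a2* was the largest change among them and was lower in the knockdown line, while *Cnnm2*, *Magt1* and *Cnnm3* were higher. In all, 4 of the 8 were called, beside 40.7% of all genes tested. The 3 called higher stand beside 20.6% of all genes, and the 1 called lower stands beside 20.1%. The latter is *Slc41a2*, whose fall was in view when the set was made, so nothing is read from these shares. The libraries of the lines did not overlap for the same 4 genes, beside 36.0% of all genes tested. The median log2 fold change of the 8 was 0.03, against -0.0025 over all genes tested. With the non-targeting replicate 3 left out, 4 were called as well.

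**Figure D1:**
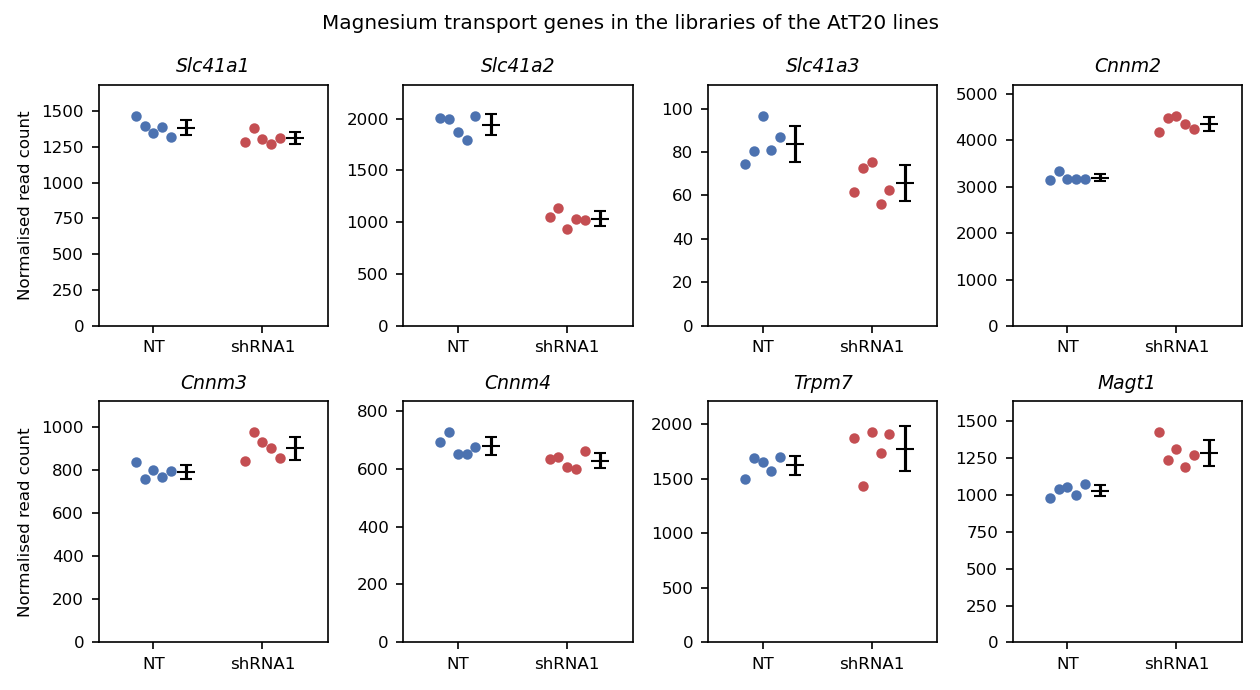
Normalised read count (vertical axis, from 0) of the 8 tested genes in each library of the non-targeting line (NT, blue) and the *Creb3l1*-shRNA1 line (shRNA1, red), with the mean and SD of 5 libraries in black. The points of *Slc41a2* lie apart in the lower direction, those of *Cnnm2*, *Cnnm3* and *Magt1* lie apart in the higher direction, and those of the other 4 genes overlap.

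*Slc41a2* (ENSMUSG00000034591, chr10:83230848-83337882 of GRCm38, minus strand) encodes a carrier of the SLC41 family. Its promoter is shown because this gene gave the largest change among the tested members and because the study examined a short element, a G-box, in the promoter of *Pcsk1*, a gene for a prohormone convertase. The window runs from 250 bases before to 50 bases after the RefSeq start (GRCm38.p6, chr10:83337768-83338067, minus strand), and capitals mark the matches to the word GACGTG, the G-box core of *Pcsk1*.
Slc41a2 promoter: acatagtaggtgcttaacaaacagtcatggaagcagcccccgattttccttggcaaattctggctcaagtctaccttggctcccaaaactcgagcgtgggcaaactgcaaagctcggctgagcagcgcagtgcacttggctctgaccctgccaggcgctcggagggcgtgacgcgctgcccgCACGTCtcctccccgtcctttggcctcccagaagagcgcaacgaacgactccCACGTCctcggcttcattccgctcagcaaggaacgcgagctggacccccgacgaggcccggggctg
Pcsk1 G-box window, chr13:75089796-75089825, plus strand: tttcgtcgatttGACGTGtaaacactcatt
The word lies on the other strand of the *Slc41a2* promoter, where it reads CACGTC, at bases -68 and -16 from the start, and it lies at base -49 of *Pcsk1*. Searched on both strands, GACGTG was in 2095 of 32851 RefSeq promoter windows of this length (6.38%), and 118 windows (0.359%) held it at least 2 times. These windows were not matched for GC content, which was 61.7% in that of *Slc41a2*, and a gene can have more than 1 of them. The annotated first base of *Slc41a2* in GENCODE is 65 bases from the RefSeq start, so the distances depend on the annotation.

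Replicates 1 to 5 of the control line held 2008, 2000, 1873, 1793 and 2025 normalised counts of *Slc41a2*. Those of the knockdown line held 1047, 1136, 939.3, 1029 and 1024. The lowest control library was well above the highest knockdown library, and the values within each line lay close together. The means were 1940 ± 101.7 and 1035 ± 69.9 (SD, n = 5), a log2 fold change of -0.91 (SE 0.04) with a 95% interval of -0.99 to -0.82. This is a decrease to 0.533 of the control level. Of the 14336 genes tested, 340 (2.37%) had a larger estimated decrease. Leaving out each library in turn gave log2 fold changes of -0.94 to -0.87, with -0.92 without the non-targeting replicate 3. The exons of *Slc41a2* overlap no other annotated gene.

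*Slc41a1* (ENSMUSG00000013275, chr1:131827493-131848865, plus strand) encodes a magnesium carrier of the plasma membrane that has been described as a sodium and magnesium exchanger. Its normalised count was 1466, 1392, 1350, 1388 and 1322 in the control line and 1287, 1381, 1302, 1272 and 1313 in the knockdown line. The lines overlapped, with means of 1383 ± 54.2 and 1311 ± 42.0 (SD, n = 5). The log2 fold change was -0.08, with a 95% interval of -0.15 to -0.0068, and the gene was not called.

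*Slc41a3* (ENSMUSG00000030089, chr6:90604725-90646412, plus strand) encodes the member of the family that has been placed in mitochondria. It had the fewest reads of the tested genes, 741 over all libraries. The libraries held 74.4, 80.5, 96.6, 80.8 and 86.7 normalised counts in the control line and 61.6, 72.8, 75.5, 55.9 and 62.7 in the knockdown line. Most knockdown libraries lay under the control libraries, but the highest of them was above the lowest control library. The log2 fold change was -0.35 (SE 0.13) with a 95% interval of -0.61 to -0.10, and the gene was not called.

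Set side by side per kilobase of their longest transcript, the family changed its order. The level of *Slc41a2* divided by that of *Slc41a1* was 1.36, 1.42, 1.38, 1.28 and 1.52 in the control libraries and 0.805, 0.815, 0.715, 0.802 and 0.773 in the knockdown libraries. *Slc41a2* was thus the higher of the pair in every control library and the lower in every knockdown library. The set was selected on the fall of *Slc41a2*, so this order and the share and sum that follow are not independent of that choice. It made up 55.4% ± 1.47 (SD, n = 5) of the summed level of the family per kilobase in the control line and 41.6% ± 1.46 in the knockdown line. The summed level itself was 738.4 ± 23.5 and 524.6 ± 22.7 normalised counts per kilobase, without overlap of the libraries. *Slc41a3* gave 4.72% ± 0.558 and 5.19% ± 0.624 of it.

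*Cnnm2* (ENSMUSG00000064105, chr19:46761596-46880192, plus strand) encodes a cyclin M protein whose loss in humans leads to low blood magnesium. Its normalised count was 3148, 3342, 3169, 3161 and 3167 in the control line and 4184, 4479, 4523, 4346 and 4240 in the knockdown line. All knockdown libraries were above all control libraries, and 1 control library, replicate 2, stood above the other 4. The means were 3197 ± 81.3 and 4355 ± 146.7 (SD, n = 5), a log2 fold change of 0.45 (SE 0.03) with a 95% interval of 0.39 to 0.50. *Cnnm2* was called higher, and 939 of the genes tested had a larger estimated increase.

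*Cnnm3* (ENSMUSG00000001138, chr1:36511867-36528237, plus strand) encodes a cyclin M protein that binds phosphatases of the PRL family. In normalised counts it stood at 839.9, 758.7, 800.8, 767.1 and 794.9 in the control line and 845.3, 976.1, 932.9, 903.0 and 857.9 in the knockdown line. The libraries did not overlap, but the gap between the lines was small beside the spread within them. The log2 fold change was 0.19 (SE 0.04) with a 95% interval of 0.10 to 0.28, and the gene was called higher.

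*Cnnm4* (ENSMUSG00000037408, chr1:36471620-36508764, plus strand) encodes a cyclin M protein of epithelia and neural tissue. It lies next to *Cnnm3* on the same strand. In normalised counts it ranged from 649.8 to 724.8 in the control line and from 597.9 to 662.5 in the knockdown line, so the lines overlapped. The log2 fold change was -0.11 with a 95% interval of -0.20 to -0.02, and the gene was not called. The neighbours thus had estimates of opposite sign. *Cnnm1* (ENSMUSG00000025189, chr19:43440436-43497210, plus strand), a member known mainly from brain and testis, had 2 reads over the 10 libraries and was not tested. Annotated genes that share exonic bases with *Cnnm1*, *Cnnm3* or *Cnnm4* had no read in any library.

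The summed level of the *Cnnm* family was 944.2 ± 19.9 normalised counts per kilobase in the control line and 1188 ± 37.0 in the knockdown line (SD, n = 5), without overlap. *Cnnm2* was the main transcript of the family in every library. Its share of the sum was 68.3% ± 0.744 in the control line and 74.0% ± 0.511 in the knockdown line. That of *Cnnm4* was 15.8% ± 0.409 and 11.6% ± 0.703. The sum was lower in the knockdown line for the *Slc41* family and higher for the *Cnnm* family. Most of the difference in the *Slc41* sum was that of *Slc41a2*, the gene the set was selected on, which stood at 409.1 and 218.2 normalised counts per kilobase, and neither of the other members was called.

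*Magt1* (ENSMUSG00000031232, chrX:105968084-106011906, minus strand) was also higher in the knockdown line. In normalised counts it stood at 979.7, 1039, 1055, 998.1 and 1071 in the control line and 1422, 1234, 1313, 1187 and 1271 in the knockdown line. The libraries did not overlap, and those of the knockdown line were spread more widely. The means were 1029 ± 38.5 and 1285 ± 89.4 (SD, n = 5), a log2 fold change of 0.32 (SE 0.04) with a 95% interval of 0.24 to 0.41, and the gene was called higher.

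*Trpm7* (ENSMUSG00000027365, chr2:126791565-126876230, minus strand), the channel kinase found in most cell types, gave a result that turned on 1 library. Its normalised count was 1500, 1686, 1651, 1567 and 1697 in the control line and 1873, 1434, 1922, 1734 and 1910 in the knockdown line. The knockdown replicate 2 was below every control library, whereas the other 4 knockdown libraries were above every control library. The log2 fold change was 0.13 (SE 0.08) with a 95% interval of -0.06 to 0.32, and the gene was not called. Without the knockdown replicate 2 the log2 fold change was 0.20 and the gene was called higher. Offsets per library for GC content and length brought the estimate to 0.0052.

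*Trpm6* (ENSMUSG00000024727, chr19:18749983-18892511, plus strand) was close to absent from both lines. No read was counted on it in any of the 5 control libraries, and 2 to 4 reads were counted in each knockdown library, 14 in all. Set against a floor of 3 reads over the control group, the 14 knockdown reads gave a ratio of 4.45. The counting error of so few reads is not in this ratio, so it sets no lower limit. The gene was not tested because it did not pass the filter on low counts.

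**Figure D2:**
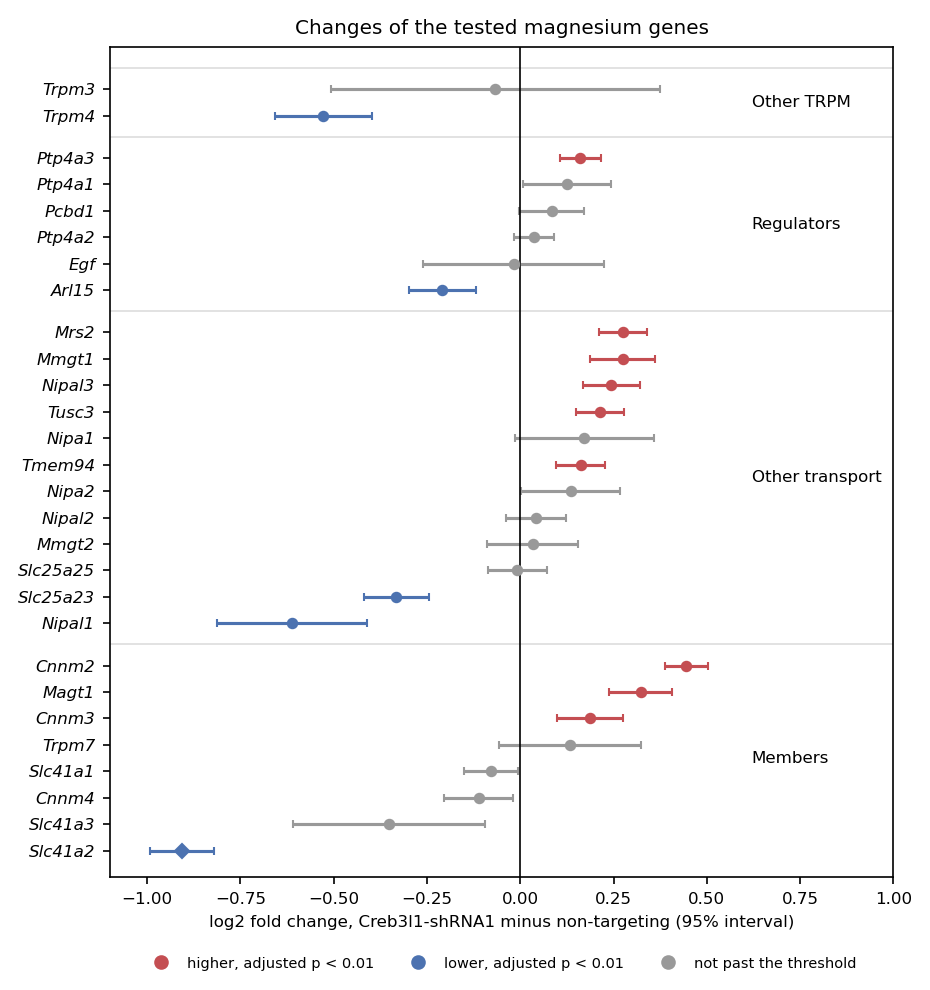
Log2 fold change between the lines (horizontal axis, *Creb3l1*-shRNA1 minus non-targeting) with the 95% interval of the edgeR fit for the 8 tested members and for other tested magnesium genes, coloured by call. *Slc41a2* (diamond) is at -0.91 and was in view when the set was chosen, *Cnnm2* is the highest at 0.45, and of the other list only *Nipal1* and *Trpm4* lie farther from 0 than *Cnnm2*.

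Levels of different genes were compared per kilobase of the longest transcript. In the control line the order was *Cnnm2* with 645.3 ± 16.4 normalised counts per kilobase, *Slc41a2* with 409.1 ± 21.5 and *Slc41a1* with 294.5 ± 11.5 (SD, n = 5), and these 3 were apart from each other in their libraries. *Trpm7* with 228.0 ± 11.9 and *Magt1* with 227.0 ± 8.50 overlapped, as did *Cnnm3* with 149.7 ± 6.05 and *Cnnm4* with 149.2 ± 6.84. *Slc41a3* was the lowest of the tested genes with 34.8 ± 3.47. Among the 14315 tested genes with a length the control level of *Cnnm2* was at the percentile 82.9, that of *Slc41a2* at 72.6 and that of *Slc41a3* at 20.3. Genes with too few reads to be tested are not in this ranking.

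In the knockdown line *Cnnm2* was still the highest, with 878.8 ± 29.6 normalised counts per kilobase. *Magt1* with 283.7 ± 19.7 and *Slc41a1* with 279.1 ± 8.94 came next and overlapped. *Trpm7* with 249.7 ± 28.8 and *Slc41a2* with 218.2 ± 14.8 followed and overlapped. The libraries of *Magt1*, at 262.0 to 313.9, also overlapped those of *Trpm7*, at 201.8 to 270.5. *Cnnm3* with 170.6 ± 10.2, *Cnnm4* with 138.0 ± 5.85 and *Slc41a3* with 27.2 ± 3.40 came last and did not overlap. On this length *Slc41a2* stood at place 2 of the 8 genes in the control line and at place 5 in the knockdown line. This shift follows the fall on which the set was selected. *Cnnm3* and *Cnnm4*, which had overlapped in the control line, were apart in the knockdown line. Part of the order depended on the length used. With the union of annotated exons, *Trpm7* was at 143.2 normalised counts per kilobase in the control line and 156.9 in the knockdown line, and no longer stood beside *Magt1*, at 220.1 in the control line. *Slc41a2* was then at 362.6 and 193.5, above *Trpm7* in both lines and at place 4 in the knockdown line. It was still above *Slc41a1*, at 281.7, in the control line and below it, at 266.9, in the knockdown line. *Cnnm4* was above *Cnnm3* in the control line, at 140.5 and 123.4, and below it in the knockdown line, at 130.0 and 140.7.

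**Figure D3:**
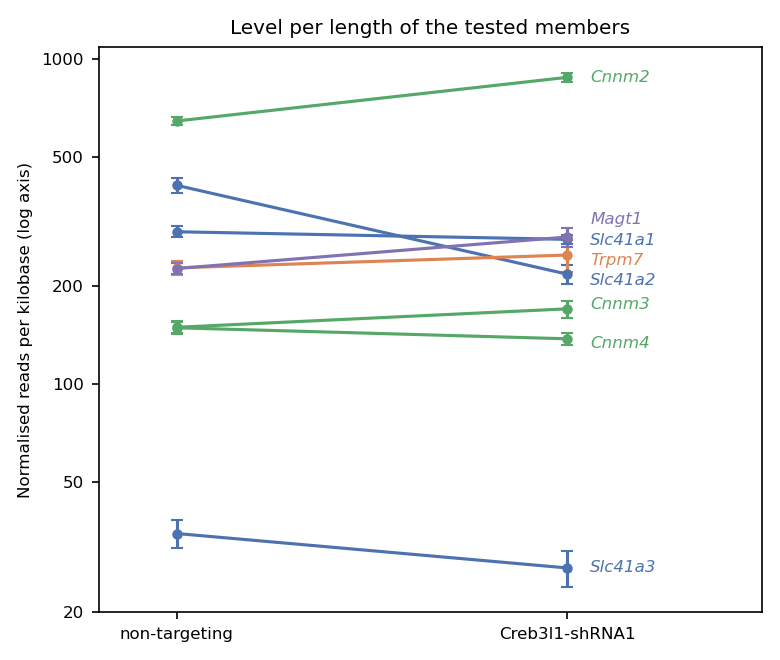
Level of the 8 tested genes in normalised reads per kilobase of the longest transcript (vertical log axis) in the non-targeting and the *Creb3l1*-shRNA1 line, as mean and SD of 5 libraries. The line of *Slc41a2* falls from 409.1 to 218.2 and crosses those of *Slc41a1* and *Magt1*. It also crosses that of *Trpm7* on this length, although the libraries of both genes overlapped in the knockdown line, and not with the union of exons.

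The promoters of the other 9 genes were searched for the same word, for CACGTG, the core of the G-box of the vasopressin gene in the study, and for TGACGTCA, the cyclic AMP response element. All 10 genes had a RefSeq window. GACGTG was found in the window of *Slc41a2* and in none of the other 9. CACGTG, which 2349 of the 32851 windows held (7.15%), was in those of *Slc41a3*, *Cnnm1*, *Trpm7* and *Magt1*. It lay at bases -76 and 8 of *Cnnm1* and at bases -25 and 17 of *Trpm7*, and 195 windows (0.594%) held it at least 2 times. TGACGTCA, present in 588 windows (1.79%), was in that of *Cnnm4* at base -24. No word was found in those of *Slc41a1*, *Cnnm2*, *Cnnm3* and *Trpm6*, and none of the matches in a window overlapped another. The windows around the matches of the tested genes other than *Slc41a2* are shown so that the words can be compared with its own, with the word in capitals.
Slc41a3, chr6:90619021-90619050, plus strand: agcagcccatggCACGTGtgcagaggacac
Cnnm4, chr1:36471561-36471592, plus strand: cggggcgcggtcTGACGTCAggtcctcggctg
Trpm7 at base -25, chr2:126876269-126876298, minus strand: aagcgcgcccttCACGTGacacgccctccg
Trpm7 at base 17, chr2:126876228-126876257, minus strand: cgacggccccgtCACGTGgctgccgcggcc
Magt1, chrX:106011882-106011911, minus strand: tgagcgtgaggtCACGTGaggggtcgagcg
Of the genes with CACGTG, only *Magt1* was called, higher at a log2 fold change of 0.32. *Trpm7* at 0.13 and *Slc41a3* at -0.35 were not called, and *Cnnm1* was not tested. The start of *Slc41a3* differs by 14521 bases between RefSeq and GENCODE, so its window depends on the annotation. The GENCODE starts of *Slc41a1* and *Trpm6* also lie outside the windows searched. The absence of GACGTG from the windows of these genes therefore holds for the RefSeq starts only. In *Magt1* the CACGTG lies before the RefSeq start but after the GENCODE start. A match of letters does not show that a factor binds there.

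**Figure D4:**
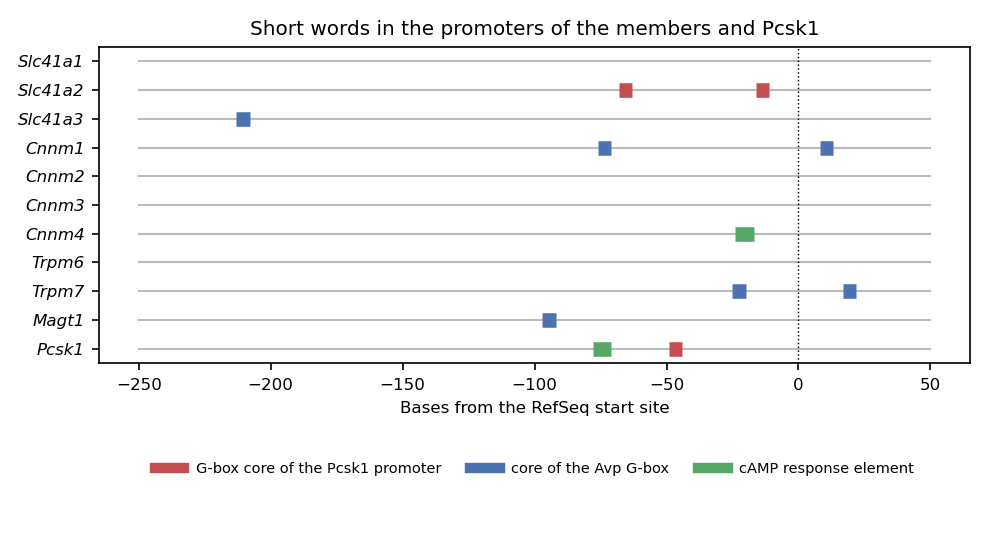
Position of the 3 words, in bases from the RefSeq start site (horizontal axis, dotted line at the start), in the 300-base windows of the 10 genes and of *Pcsk1*. Red marks (the G-box core of *Pcsk1*) are in the rows of *Slc41a2* and *Pcsk1*, blue marks (the core of the vasopressin gene's G-box) in 4 rows and green marks (the cyclic AMP response element) in those of *Cnnm4* and *Pcsk1*.

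The shRNA could pair with other transcripts through its seed, so the longest annotated 3' UTR of each member was searched for the seed word. The target of *Creb3l1*-shRNA1 is shown with the bases that pair with guide bases 2 to 8 in capitals.
Creb3l1-shRNA1 target: gagtcggatttccTCAACAAt
The word TCAACAA was not in the 3' UTR of *Slc41a2*, of 2717 bases, while 15.8% of 2655 genes with a 3' UTR of like length hold it. It was found 1 time in that of *Slc41a1*, of 2130 bases, where 12.1% of 3034 genes of like length hold it. The other 8 members had no match.

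A second list took 32 further genes of magnesium transport and its regulation, of which 21 were tested. Of these, 11 (52.4%) were called, 6 higher and 5 lower, beside 40.7% of all genes, and their median log2 fold change was 0.04. Among other transporters and channels 12 of 17 were tested, with 5 called higher and 2 lower. Among partners and regulators 7 of 9 were tested, with 1 called higher and 2 lower, and among the other TRPM channels 2 of 6 were tested, with 1 called lower. With the non-targeting replicate 3 left out, 11 were called as well.

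*Mrs2*, the magnesium channel of the inner mitochondrial membrane, was higher in the knockdown line. Its normalised count was 1667 ± 41.6 in the control line and 2019 ± 68.3 in the knockdown line (SD, n = 5), a log2 fold change of 0.28 ± 0.03 (SE, adjusted p = 1.4e-09). *Tusc3*, the paralogue of *Magt1* in the oligosaccharyltransferase, rose with a log2 fold change of 0.21 ± 0.03 (SE, adjusted p = 4e-07). Its level was 625.5 normalised counts per kilobase in the control line, above the 227.0 of *Magt1*. Both paralogues were called higher in the knockdown line. *Mmgt1*, a subunit of the membrane protein insertase of the endoplasmic reticulum that was also described as a magnesium transporter, rose by 0.27 ± 0.04 on the log2 scale (SE, adjusted p = 1.8e-06).

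*Nipal3* and *Nipal1*, relatives of the NIPA magnesium transporters, moved in opposite directions. *Nipal3* rose from 1201 ± 60.3 to 1424 ± 55.3 normalised counts (SD, n = 5; log2 fold change 0.24, adjusted p = 5.8e-07). *Nipal1* was 157.9, 159.0, 168.7, 167.1 and 196.1 in the control line and 125.9, 104.9, 128.7, 91.9 and 105.4 in the knockdown line. It was the largest decrease among the tested genes of this list, with a log2 fold change of -0.61 ± 0.10 (SE, adjusted p = 1.9e-06). *Nipa1*, *Nipa2* and *Nipal2* were not called, with log2 fold changes of 0.17, 0.14 and 0.04 and 95% intervals from -0.01 to 0.36, 0.0013 to 0.27 and -0.04 to 0.12.

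*Tmem94*, proposed to carry magnesium into the endoplasmic reticulum, rose by 0.16 ± 0.03 on the log2 scale (SE, adjusted p = 5.5e-05). *Slc25a23*, a mitochondrial carrier that exchanges ATP-magnesium for phosphate, fell from 1112 ± 73.9 to 882.0 ± 39.1 normalised counts (SD, n = 5; log2 fold change -0.33, adjusted p = 2.1e-08). Its relative *Slc25a25* was not called, with a log2 fold change of -0.0075 and a 95% interval of -0.09 to 0.07. Thus the channel gene *Mrs2* and the carrier gene *Slc25a23*, both mitochondrial and both called in this list, had opposite signs.

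*Arl15*, a small GTPase that binds cyclin M proteins, fell by 0.21 on the log2 scale (SE 0.04, adjusted p = 0.00013). The PRL phosphatase genes *Ptp4a1* and *Ptp4a2* were not called, with log2 fold changes of 0.12 and 0.04. *Ptp4a3*, named after its values were seen, was called higher with a log2 fold change of 0.16 (adjusted p = 4e-06). *Trpm4*, a calcium-activated channel for monovalent cations, was 429.2 to 459.7 normalised counts in the control line and 265.5 to 341.5 in the knockdown line, a log2 fold change of -0.53 ± 0.06 (SE, adjusted p = 4.9e-09). It is a relative of *Trpm7* without the kinase, and its libraries did not overlap between the lines.

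The *Slc30* and *Slc39* families, called zinc transporters here, served as a comparison set taken by family name, whichever metal each member carries. Of the 24 genes 18 were tested and 9 (50%) were called, 5 higher and 4 lower, beside 40.7% of all genes called, 20.6% higher and 20.1% lower. Their median log2 fold change was -0.0020. In the family of importers *Slc39a6* rose by 0.37 on the log2 scale (SE 0.03, adjusted p = 1.8e-13), *Slc39a3* by 0.18 (adjusted p = 8.6e-05) and *Slc39a4* by 0.38 (adjusted p = 0.0057). *Slc39a1* fell by 0.47 on that scale (SE 0.04, adjusted p = 2.3e-13) and *Slc39a14* by 0.23 (adjusted p = 0.005). In the family of exporters *Slc30a1* rose by 0.31 (SE 0.06, adjusted p = 5e-05) and *Slc30a5* by 0.11 (adjusted p = 0.0047), while *Slc30a4* fell by 0.37 (SE 0.06, adjusted p = 1.6e-06) and *Slc30a10* by 0.66 (SE 0.21, adjusted p = 0.0075). Both families thus held members called in each direction, and 8 were called in this list without the non-targeting replicate 3. *Slc30a10* kept its call in 6 of 18 alternatives and lost it with DESeq2 and the replicate block. *Slc39a4* and *Slc39a14* kept theirs in 12 of them and *Slc30a5* in 14, and 5 genes were called without the non-targeting replicate 2.

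The genes whose profile over the 10 libraries was closest to that of *Slc41a2* were *Tapbp*, *Tram2*, *Tjp3*, *Tnfaip3* and *Tspan17*. Likeness was the root mean square difference of log2 normalised counts, each centred on the gene's own control mean, among 11000 genes. It was 0.07 for *Tapbp*, *Tram2*, *Tjp3* and *Tnfaip3* and 0.08 for *Tspan17*, against a median of 0.65. Their log2 fold changes were -0.96 to -0.89. *Tapbp*, the tapasin of peptide loading, stood at 1123 ± 45.6 and 583.1 ± 35.2 normalised counts, and *Tjp3*, a tight junction scaffold, at 2071 ± 132.7 and 1068 ± 40.5 (SD, n = 5). These values describe profiles that, like that of *Slc41a2*, stood at close to the same fraction of the control level in the knockdown line.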

How the data were processed

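Per the study's methods, the authors sequenced stranded libraries of poly(A) RNA, mapped reads to GRCm38 using STAR, and summarised them over Ensembl genes using featureCounts. The strand setting of the counting is not given in the sources used here. The deposited values are counts of reads per gene and library, without normalisation.

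Counts were analysed with edgeR 4.0.16 in R 4.3.3. Genes were kept with filterByExpr and scaled by TMM. Lines were compared by the quasi-likelihood test with robust shrinkage, without covariates. Benjamini-Hochberg adjustment ran over 14336 genes, and the threshold was 0.01. Intervals are 95% intervals of this fit. Normalised counts are counts divided by the effective library size and multiplied by its mean over libraries. Levels per kilobase used GENCODE transcripts of GRCm38, and promoters came from RefSeq (GRCm38.p6). Depth was 17420698 to 22205107 counts per library.

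The members and lists were chosen with earlier results of these data known. Members were all named, as were the 10 largest changes among called genes of each further list, the 5 profiles closest to *Slc41a2* (mean of at least 100 normalised counts, pseudocount 0.5) and *Creb3l1*; *Ptp4a3* lies outside this rule. A gene of the second magnesium list is counted but not reported here. Alternatives were DESeq2 1.42.0, RLE factors, library totals, no filter, a minimum of 10 counts per library, a replicate block, omission of each library, a threshold of 0.05, at least 1.5-fold, and offsets for GC content and length. A fit without robust shrinkage was added after the data were seen. The script was tested on simulated data. The second shRNA line of the study was not analysed here.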

Additional observations from a re-analysis of the deposited data

Results flagged for a closer look

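In each line, the lowest or highest of the 5 libraries was compared with the nearest other library, and a gap over 0.71 of the whole range (Dixon's 95% value for 5) led to a closer look. This held for 9 of 66 groups, against 3.3 that chance gives at about 1 in 20.

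Among the members, *Cnnm2* stood at 3342 normalised counts in the non-targeting replicate 2, against 3148 to 3169 in the other 4 libraries. Among the other magnesium genes, *Nipal1* stood at 196.1 in the non-targeting replicate 5 (others 157.9 to 168.7), *Tmem94* at 1929 in the same library (others 1783 to 1823), and *Tusc3* at 1774 in the non-targeting replicate 3 (others 1610 to 1655).

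Among the zinc transporters, *Slc39a1* stood at 1204 in the non-targeting replicate 2 (others 1136 to 1154) and *Slc39a4* at 95.4 in the non-targeting replicate 3 (others 67.9 to 74.2). *Slc30a4* stood at 366.0 in the knockdown replicate 2 (others 420.8 to 432.9). The same library held *Tapbp* at 643.2 (others 555.9 to 578.9) and *Tnfaip3* at 222.6 (others 200.8 to 205.8), both among the profiles closest to *Slc41a2*. All of these values are normalised counts.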

How the results depend on the processing

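Of 144 log2 fold changes of the 8 tested members under 18 alternatives, 143 kept their direction and side of the threshold and none reversed, and 1, *Trpm7* without the knockdown replicate 2 (0.20), moved past it. The largest effect came from asking for at least 1.5-fold as well, which left 1 member, 1 other magnesium gene, 1 zinc transporter gene and 1108 genes in all. Leaving out a library in turn gave 4 to 5 members, 10 to 12 other magnesium genes, 5 to 8 zinc transporter genes (5 without the non-targeting replicate 2) and 5408 to 6026 genes in all. DESeq2 called 5542 genes, no filter 6086 (with 5 members, *Trpm6* added), library totals 5677, GC and length offsets 6142 and a threshold of 0.05 called 7209 (with 6 members).

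The replicate numbers did not pair the libraries, as the deviations of libraries with the same number correlated between -0.06 and 0.04. With the replicate block 6013 genes, 4 members, 11 other magnesium genes and 8 zinc transporter genes were called. Levels per kilobase moved with the length used, most for *Trpm7* (228.0 to 143.2). Depth limits *Cnnm1*, *Trpm6* and *Slc41a3*.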
